A study of Macaca mulatta with 29 samples.

Results

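Of 29 RNA libraries from rhesus macaque embryonic stem cells, 11 carry the number 1 or 5 in their titles and 18 carry the number 2, 3 or 4. The former were set against the latter within each treatment, in the 11080 of 16048 deposited genes whose mean reached 1 FPKM (fragments per unit of transcript length and of sequencing depth). The numbers 1 and 5 were chosen by the FPKM values of these same libraries, which had shown them to differ, so the difference between the 2 sets is described here and not tested. What was tested is whether the libraries numbered 1 differ from those numbered 5, whether numbers 2, 3 and 4 differ among themselves, and whether the difference depends on treatment.

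The cells were the ORMES-6 line on inactivated mouse embryonic fibroblasts in 5% oxygen, exposed for 4 weeks in one 6-well plate per treatment. There were 5 libraries each from methanol vehicle, atrazine (ATR, a herbicide, 30 uM), bisphenol A (BPA, a plastics monomer, 10 nM), perfluorooctanoic acid (PFOA, a surfactant, 100 nM) and tributyltin chloride (TBT, an organotin, 25 nM), and 4 from di(2-ethylhexyl) phthalate (DEHP, a plasticizer, 5 uM), which has no library numbered 5. Every group, vehicle included, was thus 1 cell line on mouse feeder cells in methanol-containing medium, and compound and plate cannot be told apart. Colonies of a well were lifted together, and 100 ng of RNA was amplified before sequencing. The labels do not say that a number marks a well position, a harvest order, a day or a shared origin, nor that the libraries come from separate cultures, so p-values measure the spread between these libraries, which may be technical.

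Embryonic stem cells divide quickly, hold a transcription factor network around POU5F1, SOX2 and NANOG, and need new ribosomes and new histones in every cycle. Replication-dependent histone genes give short messages made in S phase, and most of these messages end in a stem-loop instead of a poly(A) tail. The proteins of the ribosome and of the respiratory chain also come mostly from short and abundant messages, whereas receptors and matrix proteins come mostly from long ones.

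A gene was counted when the 2 sets lay at least 0.3 apart in mean log2(FPKM + 1), with treatment as a block, and the difference had one sign in all 6 treatment groups. By this rule 738 genes (6.66% of those measured) were higher in the libraries numbered 1 and 5, and 166 (1.5%) were lower, 904 in all (8.16%). One sign in all treatment groups, at any size, was seen for 3518 genes (31.8%). Just inside the limit were MAP3K15 at 0.3004 and PCMTD1 at -0.3009, and just outside it C14orf2 at 0.29999 and HAUS3 at -0.2995, so the limit marks no gap in the values. Within every treatment at once, 92 genes (0.83%) had all libraries numbered 1 and 5 above the others, and 86 (0.776%) had them all below. The lists and genes below are those of the same contrast, so their counts describe the split and support nothing about it.

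The differences ran alike across treatments. Across the 11080 genes, the difference within 1 treatment correlated with that within another at Pearson's r between 0.34 (DEHP and TBT) and 0.81 (ATR and TBT). No libraries are shared between these pairs, genes are not independent replicates, and the DEHP difference rests on 1 library numbered 1. After treatment means were removed, the first principal component held 30.2% of the variance. Libraries numbered 1 scored 8.15 to 22.2 on it and those numbered 5 scored 1.499 to 14.6, while the other 18 scored -20.1 to 3.90. The second component, with 15.5% of the variance, placed all libraries numbered 1 at 6.32 to 18.1 and all numbered 5 at -16.5 to -5.42. The split therefore joins 2 kinds of library that lie apart from each other.

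**Figure D1:**
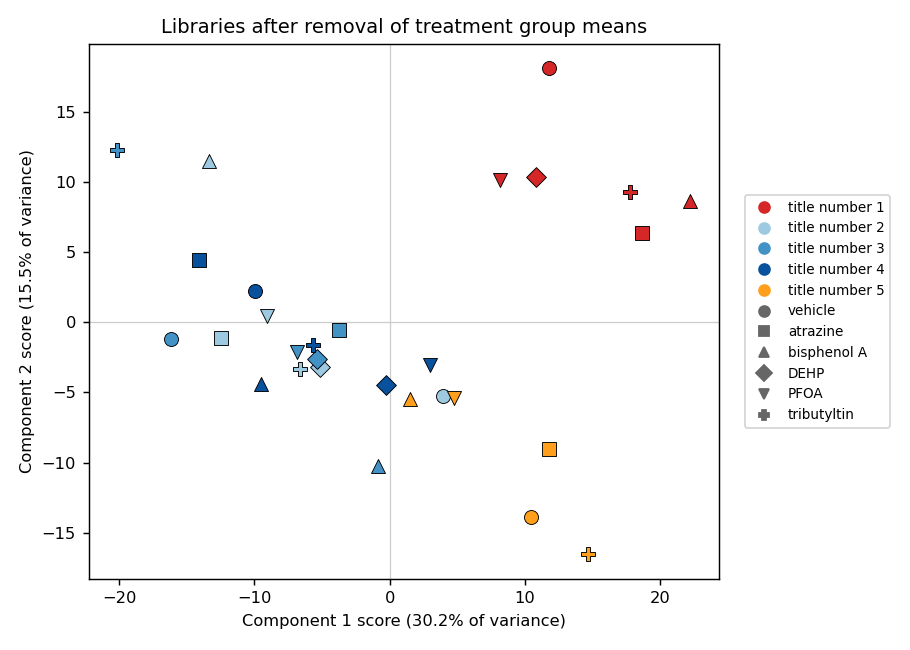
Each point is 1 library, placed by its scores on the first 2 principal components of log2(FPKM + 1) after the mean of its treatment group was subtracted; colour gives the title number and shape the treatment. Libraries numbered 1 (score 8.15 or more on component 1) and numbered 5 lie to the right, and component 2 separates the 2 numbers.

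Histone messages were higher in libraries numbered 1 and 5. Of 26 measured genes in the histone list, 13 (50%) were counted higher and 1 (3.85%) lower, against 6.66% and 1.5% of all genes. The median difference was 0.33 on the log2 scale, against -0.01 over all genes. A wider set, all 62 measured rows whose symbol starts with HIST, was drawn up after the values were seen; it had 42 counted higher, none lower and a median of 0.48. In HIST2H2AA4, a histone H2A gene, levels were 95.6 to 138 FPKM (median 106) in libraries numbered 1 and 5 and 27.8 to 70.5 FPKM (median 43.8) in the others, a log2 difference of 1.39 (SE 0.11). The lowest of the 11 lay above the highest of the 18. HIST1H4I, a histone H4 gene, stood at 55.5 to 136 FPKM (median 113) against 19.7 to 67.4 FPKM (median 32.0), a difference of 1.62 (SE 0.15). Its sets overlapped in total but were apart within each of the 6 treatments. HIST1H1E, a linker histone, was at 392 to 586 FPKM (median 549.8) against 162 to 496 FPKM (median 273), a difference of 0.87 (SE 0.11), with a range of 0.58 to 1.20 over treatments. It was the only 1 of 5 measured linker histone rows counted higher. The median of the 5, a set drawn up after the values were seen, was 0.19. HIST3H2A (H2A, 1.25), HIST1H4B (H4, 1.11), HIST4H4 (H4, 1.14), HIST1H3F (H3, 1.27) and HIST2H3A (H3, 0.99) were also among the 15 largest differences. HIST2H4A had the largest, 1.97 (SE 0.56), but its levels in the 18 libraries ran from 0.0013 to 48.7 FPKM and its sets were apart in only 3 treatments. Histone genes of 1 class are near-identical copies among which reads can be split, so single histone rows are uncertain. The lowest value in the histone list was -0.33, so the list did not move as 1 block.

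Genes of the respiratory chain came next. Of 72 measured nuclear genes for oxidative phosphorylation subunits, 35 (48.6%) were counted higher and 1 (1.39%) lower, against 6.66% and 1.5% of all genes. These messages are short, with a median length of 0.207 relative to the median gene. Of the shortest 10% of all genes, at up to 0.356, 32.0% were counted higher, so 6.66% is not the share of genes of like length. The median difference was 0.31, with medians of 0.16 to 0.39 in single treatments. NDUFA11, a subunit of complex I, was at 91.7 to 133 FPKM (median 109) against 27.4 to 121 FPKM (median 49.4), a difference of 1.08 (SE 0.15). NDUFB7, of the same complex, was at 234 to 375 FPKM (median 310.0) against 90.9 to 277 FPKM (median 161), a difference of 0.90 (SE 0.12). COX8A of cytochrome c oxidase was at 137 to 185 FPKM (median 160.4) against 55.7 to 139 FPKM (median 83.4), a difference of 0.87 (SE 0.095). The 2 sets overlapped in all 3 genes, and only COX8A kept them apart within all 6 treatments. COX7C differed by 0.85. The subunit counted lower was ATP5G3, one of the genes for the membrane ring of ATP synthase, at 63.3 to 85.0 FPKM (median 74.7) against 85.4 to 115 FPKM (median 101), with no overlap between the 11 and the 18 libraries. SLC25A4, the ADP/ATP carrier of the inner membrane, also lay lower in all 11, at 12.4 to 17.9 FPKM (median 15.5) against 18.03 to 22.9 FPKM (median 20.3). ATP5G3 and SLC25A4 were chosen after their values were seen. The summed level of the list took 2.39% to 2.60% (median 2.54%) of all FPKM in libraries numbered 1 and 5 and 1.97% to 2.57% (median 2.198%) in the others.

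Ribosomal protein genes shared the direction. Of 74 measured cytoplasmic ribosomal protein genes, 30 (40.5%) were counted higher and none lower, against 6.66% and 1.5% of all genes. The median difference was 0.26. RPL35, of the large subunit, was at 996 to 2146 FPKM (median 1747) against 612 to 1466 FPKM (median 798), a difference of 1.01 (SE 0.12). RPS15, of the small subunit, was at 542 to 875 FPKM (median 703) against 324 to 651 FPKM (median 408), a difference of 0.79 (SE 0.087). RPL29 differed by 0.78 and RPS14 by 0.77. Together these messages took 22.4% to 29.9% (median 26.9%) of summed FPKM in libraries numbered 1 and 5 against 20.9% to 28.5% (median 24.3%), ranges that overlap over most of their width. The median of the list was 0.091 after quantile normalization of the libraries, below its reported size. Reads of ribosomal protein genes can also fall on their many pseudogenes. Mitochondrial ribosomal proteins, a set drawn up after the values were seen, had 19 of 70 counted higher and 1 lower (median 0.19). MRPL41 differed by 1.17 (SE 0.16) and MRPL39 by -0.48 (SE 0.083), so 2 parts of the same subunit lay at opposite ends.

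Other genes with large positive differences were PPDPF at 1.09 (SE 0.12), MIF, a cytokine-like tautomerase, at 0.97 (SE 0.14), and C19orf33 at 1.04 (SE 0.19). The read-through row NME1-NME2 differed by 1.52 (SE 0.44), but it shares sequence with its 2 parent genes and is uncertain. In 11 genes (0.0993%) every library numbered 1 or 5 lay above all 18 others. Besides HIST2H2AA4 they include 2 spliceosome genes, TXNL4A at 56.8 to 81.8 FPKM (median 68.9) against 37.8 to 55.4 FPKM (median 47.9), and SNRNP70, the 70K protein of U1, at 40.4 to 48.1 FPKM (median 44.9) against 21.4 to 38.9 FPKM (median 33.7). These were chosen after their values were seen. Within the splicing list, SNRPB, a core Sm protein, was higher by 0.68, while CLK1, a kinase of SR proteins, was lower, at -0.45. Of the 36 measured members 7 (19.4%) were counted higher and 1 (2.78%) lower, against 6.66% and 1.5% of all genes. The list median was -0.07. ACTB, cytoplasmic actin, was at 2206 to 2914 FPKM (median 2396) against 1367 to 2384 FPKM (median 1883), a difference of 0.42 (SE 0.069), and apart within all 6 treatments.

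No fixed list had more than 2 members counted lower in libraries numbered 1 and 5. RTN4, a reticulon that shapes the endoplasmic reticulum, was at 187 to 336 FPKM (median 222) against 302 to 473 FPKM (median 393), a difference of -0.66 (SE 0.081), with -0.79 to -0.55 over treatments. ADSS, which makes adenylosuccinate on the way to AMP, was at 28.4 to 53.1 FPKM (median 34.6) against 48.6 to 73.7 FPKM (median 56.0), a difference of -0.61 (SE 0.073). MAP2K1, the kinase MEK1 of the ERK pathway, was at 73.0 to 103 FPKM (median 83.0) against 91.7 to 169 FPKM (median 124), a difference of -0.54 (SE 0.062). Each of the 3 was apart within all 6 treatments, while their total ranges overlapped in part. BMPR1A, a type I receptor for bone morphogenetic proteins, was at 19.2 to 32.7 FPKM (median 22.5) against 30.6 to 44.0 FPKM (median 34.6), a difference of -0.53 (SE 0.073). COQ10B, a coenzyme Q-binding protein, differed by -0.69 (SE 0.088). ME2, the mitochondrial malic enzyme, was at 25.7 to 35.3 FPKM (median 31.2) against 37.0 to 48.3 FPKM (median 41.2), and its sets did not overlap. In all, 10 genes (0.0903%) lay below all 18 others in each of the 11 libraries, among them FMR1, FXR1 and CPSF3, which were chosen after their values were seen. CBX3 (HP1 gamma, -0.56), ALDH9A1 (an aldehyde dehydrogenase, -0.62), KLHDC2 (a ubiquitin ligase adaptor, -0.48), CEBPZ (-0.49) and UNC50 (-0.51) complete the larger differences among well-measured genes. CBX3 and CEBPZ were low mainly in number 1. Medians of CBX3 in numbers 1 to 5 were 90.8, 147, 193, 170 and 148 FPKM. Those of CEBPZ were 49.4, 76.4, 104, 90.8 and 82.3 FPKM. FAIM had the lowest value, -0.86 (SE 0.35), and BGLAP followed at -0.69 (SE 0.23), but both were low and scattered. The rows ARMCX5-GPRASP2 (-0.54) and MSANTD3-TMEFF1 (-0.50) are read-through rows and uncertain.

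**Figure D2:**
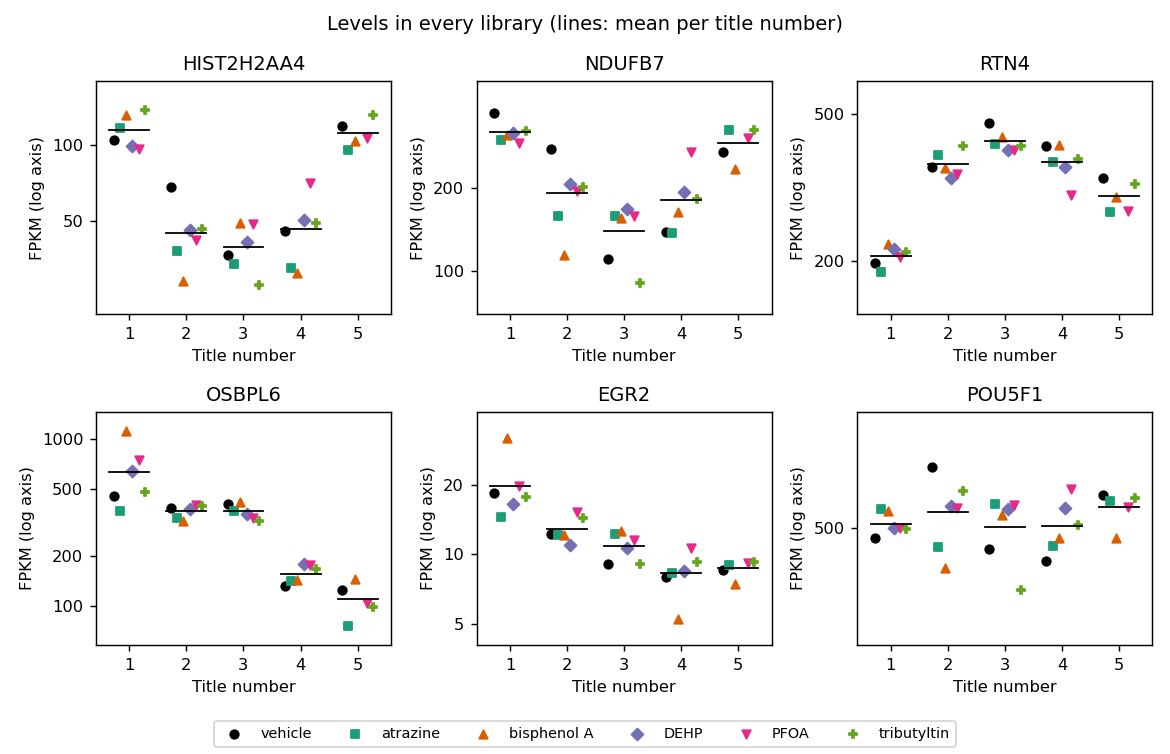
FPKM on log axes for 6 genes in all 29 libraries, by title number; colour and shape give the treatment and the black line is the mean of the libraries with that number. HIST2H2AA4 and NDUFB7 are high in numbers 1 and 5, RTN4 is low in both and lowest in number 1, OSBPL6 and EGR2 are high in number 1 and low in numbers 4 and 5, and POU5F1 varies within every number.

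The difference followed the length of the message. In these values each read is worth a fixed step per gene and library, so the steps give the length the authors' software assigned to a gene, relative to the median gene, for 9337 of the 11080 genes (84.3%). The Spearman correlation across genes between relative length and the difference was -0.35 (Pearson with log2 length -0.41). In the shortest 10% of genes, at up to 0.356 of the median length, the median difference was 0.20 and 299 of 935 genes (32.0%) were counted higher and 11 lower. The longest 10% had a median of -0.07, with 10 counted higher and 4 lower. Genes counted higher had a median relative length of 0.380 (626 of 738 with a length), and genes counted lower one of 0.989 (137 of 166). The correlation was negative in each treatment but not equally strong: rho was -0.38 in TBT, -0.38 in ATR, -0.34 in vehicle and -0.25 in BPA, but -0.13 in PFOA and -0.084 in DEHP. In DEHP the median difference was 0.13 in the shortest 10%, 0.013 in the next 10% and 0.0053 in the longest. In PFOA these were 0.11, 0.015 and -0.0055. Of the 9337 genes with a length, 626 had been counted higher and 137 lower. With a linear trend on log2 length removed, 408 of them were counted higher and 210 lower. The median of the respiratory chain list was then 0.12, with a length for 63 of its 72 genes, and that of the histone list was 0.25, with a length for 21 of 26. The trend removed was a straight line, while the median difference was 0.20 in the shortest 10% of genes, 0.071 in the next and 0.026 in the one after. A line can leave part of this relation in the shortest genes. Whether the remaining 0.12 and 0.25 go with length was not tested. For ribosomal proteins this check is void, because only 16 of 74 genes have a length.

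**Figure D3:**
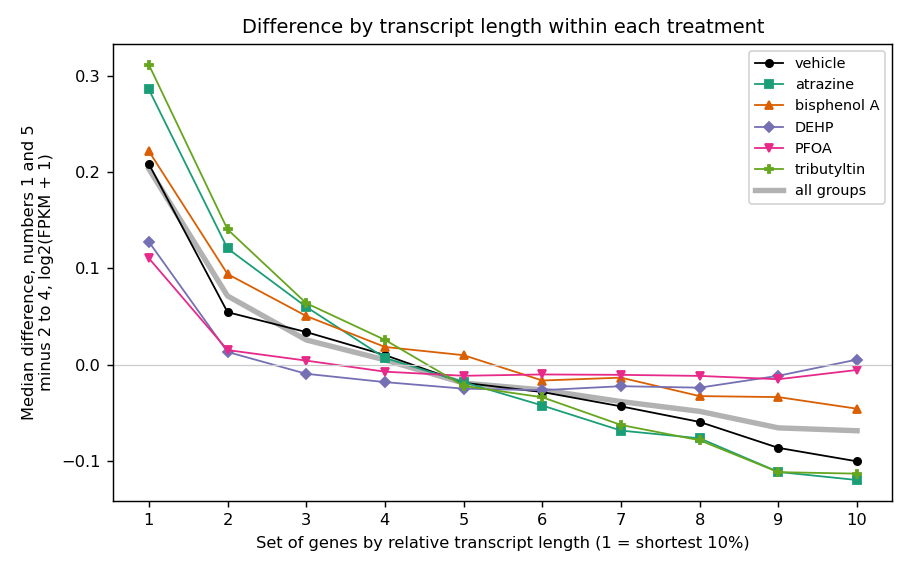
Median difference in log2(FPKM + 1) between libraries numbered 1 and 5 and those numbered 2 to 4, for 10 sets of equal size of genes ordered by relative transcript length, drawn per treatment (thin lines) and for all groups together (thick grey line). The shortest set lies above 0 in all 6 treatments, at 0.11 in PFOA to 0.31 in TBT. The curves fall towards longer genes in vehicle, ATR, BPA and TBT, while in PFOA and DEHP they stay near 0 beyond the shortest set.

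Depth moved with the split. Relative to the deepest library, the steps put the libraries numbered 1 and 5 at 14.2% to 92.4% (median 53.1%) and the others at 18.7% to 100% (median 75.2%). The mean difference in log2 relative depth within treatments was -0.40, and -0.40 without the shallow BPA libraries, given with no test since the numbers were chosen on values of these libraries. A library numbered 5 was the shallowest in 4 of the 5 treatments that have one, and a library numbered 1 was the shallowest in BPA and DEHP. With log2 depth as a covariate in the fit, 792 genes were counted higher and 294 lower. The one-sign condition still used differences without that covariate, so the part of depth in these counts was not tested. Without the BPA libraries the counts were 793 and 197. The BPA libraries, at 14.2% to 27.2%, were the shallowest of all, and the other groups spanned 41.2% to 100%. Libraries of 1 treatment correlated at 0.970 to 0.995 across genes and no 2 columns were identical.

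**Figure D4:**
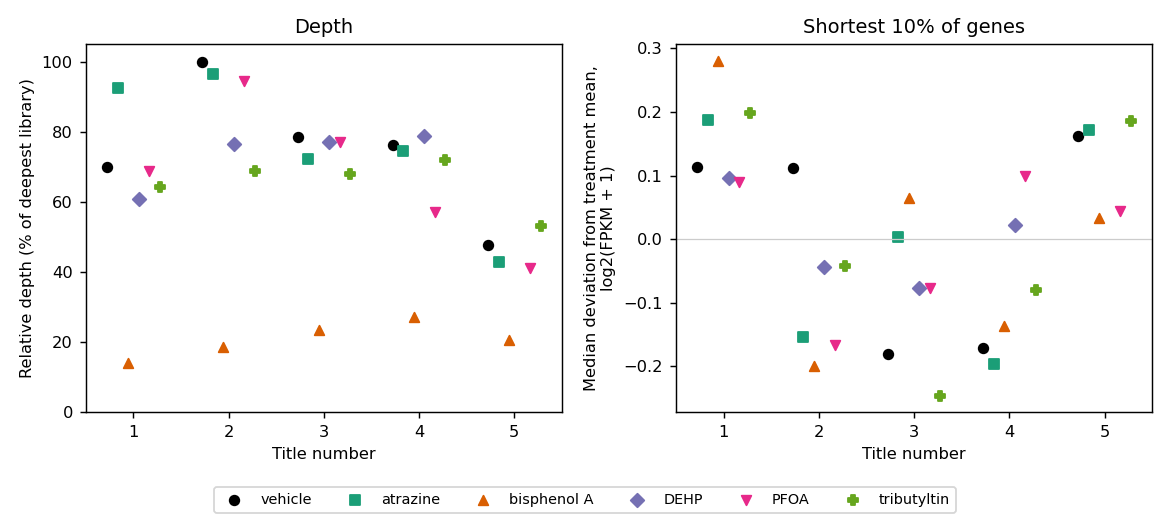
Left, depth of each library as a percentage of the deepest; right, the median deviation of the shortest 10% of genes from the treatment mean, in log2(FPKM + 1); both by title number, with colour and shape for treatment. Libraries numbered 5 lie at or below 53.1% of the deepest, and all libraries numbered 1 and 5 lie above 0 in the right panel, as do several of the others.

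Markers of identity were close in both sets. The 6 pluripotency markers summed to 2039 to 2487 FPKM (median 2133) in libraries numbered 1 and 5 and to 1997 to 2497 FPKM (median 2322) in the others. POU5F1 was at 478 to 586 FPKM (median 543) against 371 to 672 FPKM (median 541), and NANOG at 111 to 145 FPKM (median 129.8) against 120.4 to 147 FPKM (median 132). LIN28A, an RNA-binding protein that blocks let-7 maturation, was lower, at 464 to 608 FPKM (median 514) against 526 to 722 FPKM (median 612), a difference of -0.22 (SE 0.048). Of 16 measured genes in the core pluripotency list, 2 (12.5%) were counted higher and none lower, against 6.66% and 1.5% of all genes. In that list 11 genes had a difference below 0, and the median was -0.083. The 2 counted higher were both expressed at a low level: UTF1 at 1.12 to 3.77 FPKM (median 2.92) against 0.307 to 2.28 FPKM (median 1.39), and FOXD3 at 2.77 to 5.94 FPKM (median 3.57) against 2.02 to 3.82 FPKM (median 2.69). The 8 fibroblast markers summed to 87.4 to 142 FPKM (median 107) against 88.1 to 127 FPKM (median 104). DCN was listed at 0 in every library, and LUM and COL3A1 stayed under 0.2 FPKM, so the sum came mainly from COL1A1, COL1A2, THY1 and PDGFRB. In the longer fibroblast list, TIMP1 (0.34) and COL6A2 (0.33) were the 2 of 17 genes counted higher, against 6.66% of all genes. CDX2 was listed at 0 throughout, and T and SOX17 stayed under 0.41 FPKM. In bulk RNA, fewer cells of a type and less RNA per cell cannot be told apart.

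Most of the remaining lists had medians near that of all genes. Medians over the 35 lists ran from -0.11 for the unfolded protein response to 0.33 for histones. Over all genes 6.66% were counted higher and 1.5% lower. In the lists of the genes named below, the share counted higher ran from 2.17% (hypoxia and glycolysis) to 15% (NRF2 and metal response). It was 8.70% for cholesterol synthesis, 7.69% for G2/M and 3.33% for G1/S, so several of these counts were near or below the share of all genes. Glycolysis and hypoxia genes had 1 of 46 counted higher (SLC16A3, a lactate exporter, 0.38) and 2 lower, PLOD2, a lysyl hydroxylase, at -0.39 and the glycolytic enzyme PGK1 at -0.31. In cholesterol synthesis, PMVK (0.48) and MVD (0.39) were counted higher and HMGCS1, which makes HMG-CoA, lower at -0.47. In the NODAL, TGF-beta and BMP list of 24, ID1 (0.41), SMAD6 (0.34) and TGFB1 (0.34) were counted higher, and SKIL (-0.42), a repressor of SMAD activity, and BMPR1A lower. LRP6, a WNT coreceptor, was lower, at -0.34, and AXIN1, a scaffold of the complex that degrades beta-catenin, was higher, at 0.33. Of the epithelial junction genes, JUP (0.37), CRB3 (0.36) and KRT8 (0.36) were the 3 of 23 counted higher. In the G1/S list of 30, CCNE1, cyclin E1, was counted higher at 0.33 and CCNE2, cyclin E2, lower at -0.31. In the G2/M list of 26, CDC20, an activator of the anaphase-promoting complex, was counted higher at 0.36 and UBE2C, a ubiquitin-conjugating enzyme of that complex, at 0.33, while 17 members had a difference below 0. Interferon genes ISG15 (0.77) and IFITM1 (0.44), the lysosomal protease CTSD (0.48) and the metallothionein MT1E (0.55) were also counted higher. Members of 1 pathway thus lay on both sides in several of these lists.

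**Figure D5:**
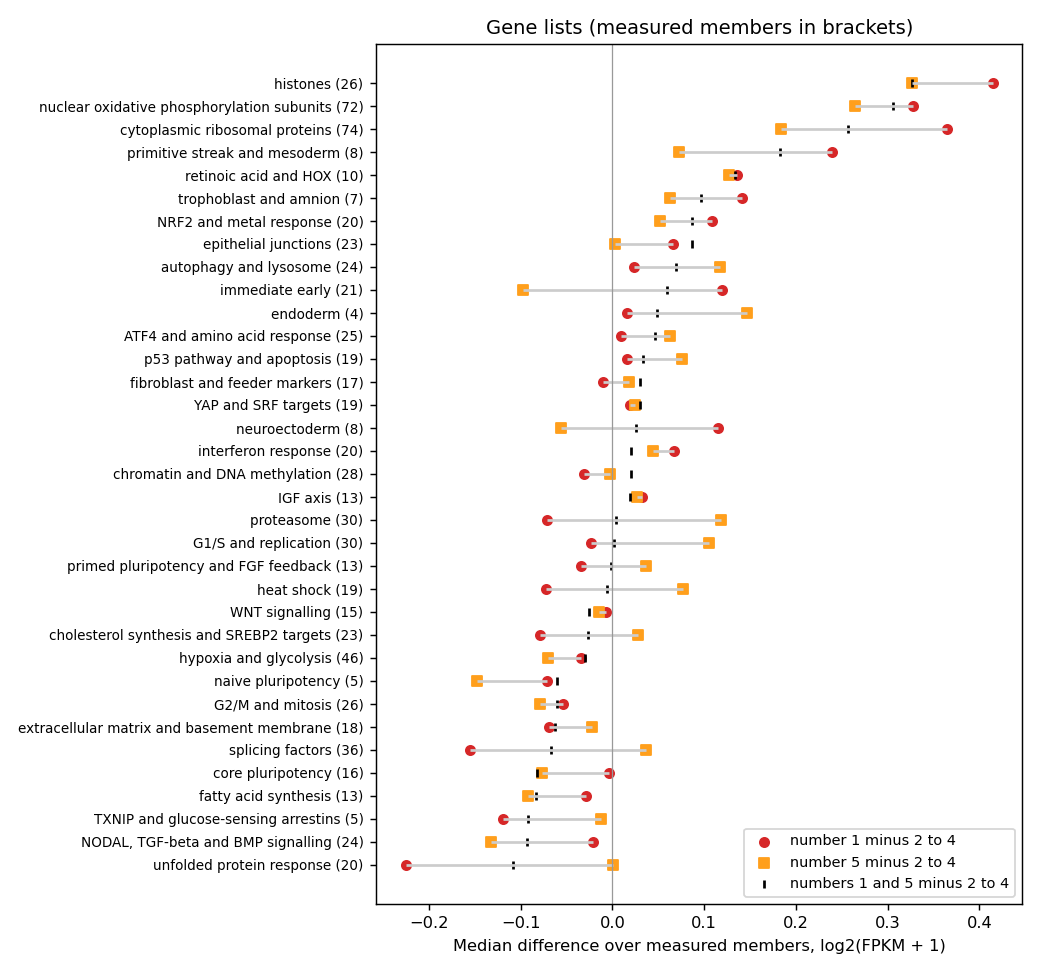
Median difference in log2(FPKM + 1) over the measured members of each of 35 gene lists, for libraries numbered 1 (circles) and numbered 5 (squares) against those numbered 2 to 4, with the value for both together as a tick. Histones, oxidative phosphorylation subunits and ribosomal proteins lie to the right of 0 for both numbers, while the unfolded protein response, splicing, proteasome, heat shock and immediate early lists have the 2 numbers apart.

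Title number as a whole was tested with limma's F test (4 degrees of freedom, treatment as a block, Benjamini-Hochberg adjustment over all genes). It called 5015 genes (45.3%). This test contains the split and so is no independent support for it. The parts orthogonal to the split are the difference between numbers 1 and 5 and the differences among 2, 3 and 4. Libraries numbered 1 and 5 differed from each other in 2607 genes (23.5%), of which 1167 (10.5%) were higher in number 1 and 1440 (13%) higher in number 5. Deviations from treatment means were compared across treatments. Between treatments, 2 libraries numbered 1 correlated at 0.37 to 0.75 across genes (15 pairs, median 0.53), and 2 numbered 5 at 0.087 to 0.65 (10 pairs, median 0.32). Pairs of the same number ran from -0.25 to 0.40 for number 2, from -0.12 to 0.58 for number 3 and from -0.18 to 0.42 for number 4. A library numbered 1 and one numbered 5 correlated at -0.21 to 0.30 (25 pairs, median 0.067). Both numbers were also set against the libraries numbered 2 to 4, which the 2 comparisons share apart from DEHP. Number 1 had 1057 genes counted higher (9.54%) and 560 lower (5.05%), with one sign in all 6 treatments. Number 5 had 720 higher (6.5%) and 317 lower (2.86%), with one sign in the 5 treatments that have it. DEHP adds nothing to any difference of number 5, so the counts of the 2 numbers follow unlike rules. The relation to length was shared by both numbers, with rho of -0.29 for number 1 and -0.34 for number 5. The difference between the 2 numbers had rho of -0.0036.

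The largest difference between the numbers set apart was in OSBPL6, an oxysterol-binding protein family member that carries lipids. It stood at 372 to 1125 FPKM (median 562) in the 6 libraries numbered 1. In the 5 libraries numbered 5 it was at 125, 75.4, 144, 104 and 97.9 FPKM in vehicle, ATR, BPA, PFOA and TBT. The sets did not overlap, and the log2 difference was 2.45 (SE 0.17, adjusted p = 8.26e-10) by limma. Numbers 2 and 3 had medians between, at 322 to 405 FPKM (median 386) and 324 to 418 FPKM (median 363), and number 4 was near number 5, at 132 to 177 FPKM (median 155). Its mean over the split was thus close to 0 (0.015). ABCC3, an organic anion exporter, likewise had its highest median in number 1 and lowest in numbers 4 and 5. Its levels were 19.6 to 53.4 FPKM (median 29.9) in number 1, 16.5 to 22.1 FPKM (median 20.2) in number 2, 16.6 to 20.8 FPKM (median 19.04) in number 3, 9.41 to 14.6 FPKM (median 12.1) in number 4 and 8.37 to 13.6 FPKM (median 11.2) in number 5. Number 1 exceeded number 5 by 1.42 (SE 0.15, adjusted p = 1.47e-06). SLC35D3, of the nucleotide sugar transporter family, was at 4.65 to 11.1 FPKM (median 6.28) in number 1, 3.25 to 4.50 FPKM (median 3.88) in number 3 and 1.16 to 2.38 FPKM (median 1.62) in number 5, a difference of 1.504 (SE 0.15, adjusted p = 3.85e-07). ABCC3 and SLC35D3 were chosen after their values were seen.

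Other genes reached their difference in other ways. CMC1, an assembly factor of cytochrome c oxidase, was at 84.0 to 115 FPKM (median 101) in number 1 and at 40.7, 44.5, 30.0, 41.0 and 47.2 FPKM in number 5, in the order of treatments above. The other 18 libraries were at 42.1 to 71.0 FPKM (median 54.3), and the 2 numbers differed by 1.28 (SE 0.10, adjusted p = 2.34e-08). CNTNAP2, a neurexin family protein of neurons, was at 27.5 to 39.8 FPKM (median 32.5) in number 1, above every other library in the series, and at 14.7, 16.3, 18.1, 15.7 and 15.3 FPKM in number 5, within the range of the 18 others, 13.1 to 20.5 FPKM (median 17.2). The difference was 0.97 (SE 0.082, adjusted p = 3.28e-08). CREG1, a secreted glycoprotein, was higher in number 1 than in number 5 by 0.92 (SE 0.08, adjusted p = 5.48e-08), and INA, the neuronal filament protein alpha-internexin, by 0.68 (SE 0.065, adjusted p = 3.72e-07). In the other direction, RTN4 was lower in number 1 than in number 5, at -0.53 (SE 0.068, adjusted p = 1.12e-05), and so was UNC50, at -0.95 (SE 0.11, adjusted p = 4.98e-06). Against the 18 others UNC50 differed by -0.93 in number 1 and by 0.007 in number 5, so its place among the genes low in both rests on number 1.

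By gene list, ribosomal proteins and immediate early genes were among those higher in number 1 than in number 5 (10.5% of all genes). Of 74 ribosomal protein genes, 16 were called higher in number 1 and 2 higher in number 5. RPS29 was at 5218 to 6707 FPKM (median 6207) in number 1 and at 3288, 3541, 2400.1, 3327 and 3583 FPKM in number 5, a difference of 0.92 (SE 0.13, adjusted p = 3.75e-05). RPL37 differed by 0.87 (SE 0.12, adjusted p = 3.06e-05) and RPS25 by 0.84 (SE 0.099, adjusted p = 4.29e-06). Against the 18 other libraries, RPS29 and RPL37 differed by 0.97 and 0.88 in number 1 and by 0.046 and 0.014 in number 5. RPS3 went the other way, at -0.62 (SE 0.15, adjusted p = 0.00351). Of 21 immediate early genes, which respond to serum and growth factors within minutes, 8 were called higher in number 1 and 2 higher in number 5, with a median of 0.31. EGR2, a zinc finger factor, was at 14.5 to 31.7 FPKM (median 18.04) in number 1 and at 8.58, 9.01, 7.45, 9.15 and 9.21 FPKM in number 5, a difference of 1.08 (SE 0.15, adjusted p = 1.74e-05), and number 4 was as low, at 5.26 to 10.6 FPKM (median 8.41). JUNB, a subunit of AP-1, differed by 1.00 (SE 0.20, adjusted p = 0.000863). CYR61, a matricellular protein in the same list, went the other way at -0.62 (SE 0.11, adjusted p = 0.000383). RPS29, RPL37, RPS25, RPS3 and EGR2 were chosen after their values were seen.

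Pluripotency genes differed in part between the 2 numbers. SOX2 was at 121 to 166 FPKM (median 140.1) in number 1 and at 115, 99.5, 96.8, 99.2 and 109 FPKM in number 5, a difference of 0.46 (SE 0.065, adjusted p = 2.95e-05), while numbers 2 to 4 spanned 98.8 to 142 FPKM (median 117). UTF1, a chromatin factor of stem cells, was higher in number 1 by 0.72 (SE 0.17, adjusted p = 0.00404). Of the 16 core pluripotency genes 4 were called higher in number 1 (10.5% of all genes were) and none higher in number 5 (13% of all genes were), and POU5F1 was not called, at -0.12 (SE 0.11, adjusted p = 0.46). FOXD3 of that list, and NANOG, were called higher in number 1 but lost their call in some alternatives, given at the end. The markers TFAP2B and GATA3 of the trophoblast and amnion list were higher in number 1, by 1.06 (SE 0.14, adjusted p = 1.19e-05) and 0.81 (SE 0.13, adjusted p = 7.83e-05). Both were low, with GATA3 at 2.74 to 4.54 FPKM (median 3.79) in number 1 and 1.25 to 2.56 FPKM (median 1.51) in number 5. CDX2 of the same lineage was listed at 0. These were the 2 of 7 measured members of the trophoblast and amnion list called higher in number 1. In that list 1 member was called higher in number 5, and the median of number 1 minus number 5 was 0.049. In the fibroblast list TIMP1, a metalloproteinase inhibitor, was higher in number 1 by 0.40 (SE 0.086, adjusted p = 0.00172), and FN1, fibronectin, was lower, at -0.32 (SE 0.077, adjusted p = 0.00391), so these markers did not share a direction. Of 17 genes in that list 3 were called higher in number 1 and 1 higher in number 5.

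Number 5 exceeded number 1 in many genes of protein folding, protein degradation and splicing, against 13% of all genes. Called higher in number 5 were 17 of 30 proteasome genes, 17 of 36 splicing factors, 10 of 20 genes of the unfolded protein response, 9 of 19 heat shock genes, 10 of 30 genes of G1/S and replication and 7 of 25 targets of ATF4. Called higher in number 1 in these lists were 1, 1, 0, 1, 2 and 0 genes. The median of number 1 minus number 5 was -0.26 for the proteasome, -0.20 for splicing, -0.21 for the unfolded protein response and -0.22 for heat shock. HSPA8, the constitutive HSP70, was at 581 to 738 FPKM (median 632) in number 1 and at 1124, 898, 820.4, 963 and 1229 FPKM in number 5, a difference of -0.60 (SE 0.089, adjusted p = 4.88e-05). The 18 other libraries lay at 619 to 998 FPKM (median 785) and overlapped both. PSMC3, an ATPase of the proteasome cap, was at 41.0 to 50.1 FPKM (median 44.7) in number 1 and 66.9, 55.3, 62.5, 60.1 and 70.4 FPKM in number 5, a difference of -0.48 (SE 0.099, adjusted p = 0.00127), and from the 18 others number 1 differed by -0.023 and number 5 by 0.46. PDIA6, a disulfide isomerase of the endoplasmic reticulum, was at 103 to 121 FPKM (median 108) in number 1 and 161, 142, 138, 136 and 160.3 FPKM in number 5, a difference of -0.43 (SE 0.075, adjusted p = 0.000268). Here the larger difference from the 18 others was that of number 1, -0.37, against 0.065 for number 5. HNRNPD, an RNA-binding regulator of splicing and decay, showed the pattern of PDIA6, with a difference of -0.49 (SE 0.086, adjusted p = 0.000249). PSMC3 and PDIA6 thus reached their difference from opposite sides. HSPA8, PSMC3, PDIA6 and HNRNPD were chosen after their values were seen, and the part of depth in these lists was not tested. Depth had a lower median in number 5 (42.9%, 20.5% to 53.1%) than in number 1 (66.6%), although the shallowest library of all was BPA 1.

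Fewer genes separated numbers 2, 3 and 4. The F test (2 degrees of freedom) called 7 genes (0.0632%), with 1285 at an unadjusted p below 0.05 where 554 would be expected. The count was 466 with library weights, 38 after quantile normalization and 11 without the BPA libraries, and these 3 numbers are those left once the 2 that differed were set apart. OSBPL6 led (adjusted p = 9.89e-05), set apart by its low level in number 4. PRSS16, a serine protease, followed (adjusted p = 0.0032) with log2 differences from number 2 of 0.53 in number 3 and 0.40 in number 4. ZIC2, a zinc finger factor of primed stem cells, had differences of 0.45 and 0.13 (adjusted p = 0.00517). AP3S1, a subunit of the AP-3 adaptor, had an adjusted p of 0.0139 and NAT10, an RNA acetyltransferase, one of 0.0218. The count was 3 without the ATR library numbered 3 and 4 without the BPA library numbered 4. It was 11 without ATR 1, 12 without ATR 4, 15 without TBT 3, and 18 without BPA 1 or BPA 2, so it rests on single libraries. NAT10 was no longer called, with adjusted p-values of 0.0524 to 0.0864, without the BPA libraries or without vehicle 4, ATR 3, DEHP 3, DEHP 4, TBT 4 or BPA 4 in turn, nor AP3S1 without ATR 3 (adjusted p = 0.0804).

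Whether the split depends on treatment was tested as an interaction (limma F test, 5 degrees of freedom). It called 0 genes (0%), with 321 at an unadjusted p below 0.05 where 554 would be expected, and 1 gene without the BPA library numbered 1 or the one numbered 5. The smallest p-values belonged to MDM1, RASD1, D2HGDH, DNAJB12 and SPINT1, each with an adjusted p of 1.00. MDM1, for example, differed by -1.15 in BPA and 0.049 in PFOA, but its mean level was 1.02 FPKM. With 1 or 2 libraries numbered 1 or 5 in each treatment, a difference in size between treatments could be missed. The fit also had no term for title number within the 2 sets, so differences between numbers 1 and 5 counted as residual spread. This too can hide an interaction, so the lack of calls does not show that the difference is the same in every treatment.

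The compounds were compared with vehicle to see how the title number bears on those comparisons. Without any term for it, limma called 138 genes for TBT (1.25%), 21 for ATR (0.19%), 18 for PFOA (0.162%), 1 for DEHP (0.00903%) and 0 for BPA (0%). With the split as a term the counts were 223 for TBT, 39 for ATR, 29 for PFOA, 10 for DEHP and 4 for BPA. With title number as a block the counts were 84 for ATR, 63 for PFOA, 30 for DEHP, 3 for BPA and 420 for TBT. Deviations of same-numbered libraries of TBT and vehicle correlated at 0.18 to 0.65 over 5 pairs. The ranges were -0.13 to 0.52 for ATR, -0.25 to 0.37 for BPA, 0.00045 to 0.57 for DEHP and -0.17 to 0.45 for PFOA, each overlapping that of TBT. In the libraries numbered 2, 3 and 4 alone, limma called 71 genes for TBT, 14 for ATR, 12 for PFOA, 0 for DEHP and 0 for BPA, with fewer libraries in each group. The count for TBT was 71 without the vehicle library numbered 2, 82 without vehicle 3 and 90 without TBT 1. That for ATR was 12 without vehicle 2 and 13 without ATR 4. For PFOA it was 7 without vehicle 2, 9 without vehicle 3, 11 without PFOA 1, 8 without PFOA 2, 9 without PFOA 4 and 11 without PFOA 5.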

How the data were processed

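The authors deposited 1 table of FPKM values per gene, already scaled for length and library size by the authors. The tools named in the submitters' processing notes are TopHat2 2.1.1, Cuffdiff 2.2.1 and SAMtools, and a mouse build, GRCm38.p5, is listed with no role. Neither the rhesus build nor the treatment of reads from mouse feeder cells is given in the sources used here. Symbols are human, so each row is the human homolog of a macaque gene. All 29 columns matched 1 title each.

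Values were taken as log2(FPKM + 1), which understates changes of low genes, and genes with a mean under 1 FPKM were left out. Differences, standard errors and tests came from limma 3.58.1 in R 4.3.3 (moderated, with a mean-variance trend), with Benjamini-Hochberg adjustment over 11080 genes called at 0.05. No count model served for FPKM. Relative depth, whole reads and relative length were read from the steps of FPKM values, accepted as whole within 0.03 of a read, for 12936 genes. The depth of 1 library was corrected for a common factor. A planned permutation test of depth between the 2 sets is not reported, since the sets were chosen on these libraries. The depth recovery and the limma fit were tested on simulated data.

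The split of title numbers, the genes and the 35 gene lists were chosen with earlier results of these data known. Named genes are the 15 highest and 15 lowest differences of one sign in every treatment, up to 4 members per list with the largest difference, the genes with the smallest p of each test (8 for title number, 5 each for the others) and 10 genes named in advance of this account; other genes are markers, genes at the size limit or marked as chosen after their values were seen. Each compound was compared with vehicle without pairing of same-numbered libraries. Title number served as a block only in an alternative, run alike for all 5 compounds. The lowest correlation between deviations of same-numbered libraries of compound and vehicle was highest for TBT, at 0.18 over 5 pairs. The alternatives were another pseudocount, other filters, scalings and size limits, library weights, no trend, title number or the split as a term, fewer libraries, and leaving out each library. Number 1 or number 5 alone, a depth covariate and a length trend were added after the data were seen. No gene coordinates or sequences were used.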

Additional observations from a re-analysis of the deposited data

Results flagged for a closer look

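Within each title number, 80 sets of 5 or 6 libraries were checked for a library far from the others, in 15 genes after removal of treatment means and in relative depth. Chance marks about 1 in 20 such sets, and 3 were marked. MAP2K1, the kinase MEK1, was at 91.7 FPKM in the PFOA library numbered 4, against 117 to 141 FPKM in the other 5 libraries numbered 4. NAT10 was at 25.8 FPKM in the TBT library numbered 3, against 25.1 to 28.7 FPKM in the others with that number; it stood out only after treatment means were removed. The BPA library numbered 3 had a relative depth of 23.4%, against 68.0% to 78.5% in the other libraries numbered 3.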

How the results depend on the processing

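The number of genes counted in the split depended most on its limit: 1268 higher and 751 lower at 0.2, and 208 and 12 at 0.5. Lower genes numbered 560 with number 1 alone, 317 with number 5 alone (one sign in 5 treatments) and 294 with depth as a covariate. Of the 9337 genes with a length, 626 were counted higher as reported and 408 with the length trend removed. Against numbers 2 to 4, number 5 alone gave -0.36 for CMC1, -0.053 for CNTNAP2, -0.25 for EGR2, -0.16 for RPS25 and 0.00702 for UNC50, each opposite in sign to both numbers together; the cause was not tested. Leaving out each library in turn gave 592 to 843 higher and 116 to 213 lower genes, 4371 to 5201 genes called for title number, 935 to 1260 higher in number 1 and 1008 to 1562 higher in number 5, 3 to 18 among numbers 2 to 4, 0 to 1 for the interaction, 12 to 24 for ATR, 0 to 1 for BPA, 0 to 2 for DEHP, 7 to 24 for PFOA, 71 to 156 for TBT, and a log2 depth difference of -0.47 to -0.34.

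Among numbers 2 to 4, 38 genes were called after quantile normalization, 11 without the BPA libraries and 466 with library weights. The interaction called 1 gene at a pseudocount of 0.1 and 3 with no filter. With title number as a replicate block, 84 genes were called for ATR, 3 for BPA, 30 for DEHP, 63 for PFOA and 420 for TBT; apart from TBT not every same-numbered pair with vehicle had a correlation over 0.1, with lowest values of -0.13 for ATR, -0.25 for BPA, 0.00045 for DEHP and -0.17 for PFOA. With the split as a term the counts were 39, 4, 10, 29 and 223. Library weights gave 32 for ATR, 74 for DEHP, 54 for PFOA and 254 for TBT. DEHP had 0 at a pseudocount of 0.1, after quantile normalization, with no trend and in numbers 2 to 4 alone, 4 with no filter and 3 without BPA; BPA had 1 with no filter; TBT had 71 in numbers 2 to 4 alone. The single DEHP call changed when any of 20 libraries was left out.

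Each of the 2 other scalings moved the median of all genes by under 0.1. Shallow BPA libraries limit what can be seen for low genes, and absolute depth beyond the recovered reads is unknown. Genes named for number 1 against 5 with an adjusted p in the report stayed below 0.05 under the alternatives run, POU5F1 aside, which was not called and was not recomputed under them. Over the 91 examined genes that were called, the call was lost in 247 alternative results and kept in 3183. NANOG had an adjusted p by limma of 0.077 without the BPA libraries and 0.103 without TBT 5. That of FOXD3 was 0.054 without the BPA libraries and 0.077 with library weights.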
